A study of Drosophila melanogaster with 999 samples.

Results

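The motoneurons (MNs) described here carried reads of the head Hox genes Dfd or Scr and none, or almost none, of the trunk Hox genes. They were chosen by their own read counts. A cell was taken when it had fewer than 10 reads of twit, Vmat, Antp, Ubx, abd-A and Abd-B and 10 or more reads of Dfd or Scr. This rule took 57 cells (5.71% of all cells in the deposited table), of which 32 had Dfd alone (Dfd cells), 24 had Scr alone (Scr cells) and 1 had both. All genes were compared with 340 trunk Hox cells, which had fewer than 10 reads of twit and Vmat and 10 or more reads of Antp, Ubx, abd-A or Abd-B. Every cell came from a pool of Drosophila melanogaster embryos of 19 to 20 h that carried OK371-GAL4 and UAS-RFP, was sorted as RFP-positive, DAPI-negative and DRAQ5-positive, and was sequenced as its own library by SMART-Seq2. OK371-GAL4 is an enhancer-trap driver of glutamatergic neurons, so that the sort could also take glutamatergic neurons that are not MNs. Primers for 7 Hox genes, Dfd and Scr among them, were added to the reverse transcription and the preamplification, so that the reads of these genes cannot be set against those of other genes. The labels name no embryo, all cells therefore form 1 sample, and no p-value was computed.

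Hox genes encode homeodomain transcription factors (TFs) that give the segments along the anterior-posterior axis their identity. In the fly embryo Dfd acts in the mandibular and maxillary segments and Scr in the labial segment and the first thoracic segment, while Antp, Ubx, abd-A and Abd-B act further back in the trunk. MNs of the gnathal segments innervate muscles of the feeding apparatus and the head, and the TALE homeodomain proteins Exd and Hth bind DNA together with Hox proteins.

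In the 32 Dfd cells, Dfd had 13 reads at the lowest, 120.5 at the median, and its level ran over 46.6, 247.99 and 1234 CPM (lowest, median, highest). CPM is the reads of a gene scaled to an equal total in every cell. Scr had 0 reads in each of them. In the 24 Scr cells, Scr had 14 reads at the lowest, 66.5 at the median and 10041 at the highest, and Dfd had 0 reads in each. The single cell with both had 11 reads of Scr. Apart from this cell, both genes marked separate cells. Among the cells with low twit, Vmat and trunk Hox reads, the highest Dfd count below the minimum was 7 reads and the lowest above it 13 reads, with 4 cells from 5 to 9 reads and 4 cells from 10 to 19 reads. For Scr these border counts were 8 and 11 reads, with 3 cells from 5 to 9 reads and 2 cells from 10 to 19 reads. In the 57 cells the trunk Hox genes had 16 reads in all, with 7 reads as the highest count of a gene in a cell, and 50 cells had none.

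**Figure D1:**
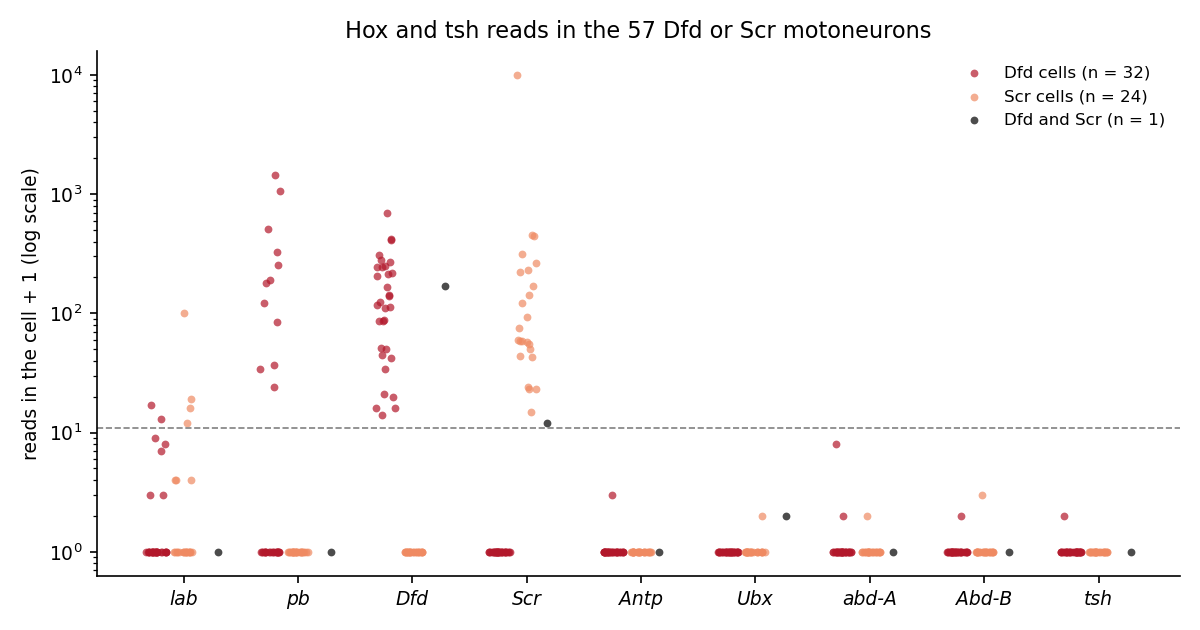
Reads of the Hox genes and of tsh in each of the 57 Dfd or Scr cells, plotted as reads + 1 on a log axis, with 1 point per cell and small sideways scatter. Columns of points within a gene are Dfd cells, Scr cells and the cell with both, and the dashed line marks 10 reads. Dfd and Scr occupied separate cells apart from 1, pb was in Dfd cells alone, and tsh had 1 read in 1 cell.

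Dfd and Scr differed in how often they met a trunk Hox gene. All 33 low-twit cells with 10 or more Dfd reads had fewer than 10 reads of each trunk Hox gene, and in the 340 trunk Hox cells Dfd had 0 reads. Of the 39 low-twit cells with 10 or more Scr reads, 25 had no trunk Hox gene at that level and 14 did, namely Antp in 9 cells, Ubx in 7, abd-A in 6 and Abd-B in 4. These 14 cells are trunk Hox cells by the rule, and 8 of them had tsh. lab, the Hox gene of the intercalary segment and the brain, had 10 or more reads in 2 Dfd cells and 4 Scr cells, with at most 99 reads. It was not particular to them, with 10 or more reads in 21 of the 340 trunk Hox cells and at most 79 reads. pb, the Hox gene of the mouthparts, was not targeted by a primer and is given below.

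The cells carried the genes of glutamatergic neurons. VGlut, the vesicular glutamate transporter, had 10 or more reads in 96.5% of the Dfd or Scr cells and 95% of the trunk Hox cells, and the synaptotagmin gene Syt1 in 100% and 99.4%. The pan-neuronal gene elav was in 82.5% and 77.9%. Of the 10 listed pan-neuronal genes 9 had 10 or more reads in a Dfd or Scr cell. The other, Rbp9, had 0 reads in all 57 and was in 0.882% of the trunk Hox cells. onecut was less common in Dfd or Scr cells, at 26.3% against 34.1%. Of the genes of other cells, the glial genes repo, wrapper, alrm, moody, gcm, Gs2 and Eaat1 had 0 reads in all 57 cells, and so had the muscle genes Mhc, Mlc2, Tm2, wupA, sls and bt and the neuroblast and cycling genes dpn, wor, ase, CycE, stg and PCNA. Of the 9 listed glial genes 2 had a read, chiefly nrv2 in 57.9% of the Dfd or Scr cells and 59.7% of the trunk Hox cells, and of the 11 muscle genes 5 had a read, chiefly Msp300 (96.5% of the Dfd or Scr cells and 81.2% of the trunk Hox cells), Tm1 (56.1% and 48.2%) and Mef2 (28.1% and 22.1%). Of the 9 neuroblast and cycling genes mira, CycA and CycB had a read, and mira had 10 or more in 3.51% of the Dfd or Scr cells and 1.18% of the trunk Hox cells. Of the 8 blood cell genes 4 had a read, and Pxn, Col4a1 and crq had 10 or more in 1 cell each. Of the 9 epidermis and gut genes 6 had a read, chiefly cora in 49.1% of the Dfd or Scr cells and 33.8% of the trunk Hox cells. The part of these markers in the results was not tested. The summed CPM of the 9 glial genes ran over 0, 117.8 and 1516 (lowest, median, highest) in Dfd or Scr cells and 0, 100.4 and 24815 in trunk Hox cells. That of the 11 muscle genes ran over 137.4, 1501 and 5148 in Dfd or Scr cells and 0, 874.2 and 9645 in trunk Hox cells. VAChT, the acetylcholine transporter, was in 5.26% and 7.06% of these cells. Total counts ran over 112067, 295899 and 5834773 in Dfd or Scr cells and 100027, 337687.5 and 2827409 in trunk Hox cells, and the median number of genes with 10 or more reads was 1154 in Dfd or Scr cells and 1108 in trunk Hox cells.

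The comparison with trunk Hox cells asked which genes set the Dfd or Scr MNs apart besides the Hox genes that chose them. A gene was counted as higher or lower when the share of cells with 10 or more reads differed by 20 percentage points or more and the mean CPM by 2-fold or more in the same direction. Of 4503 genes compared, 17 were higher (0.378%) and 6 were lower (0.133%) in Dfd or Scr cells. Over all genes compared the median difference was 2.28 points and the median log2 ratio of mean CPM was -0.09, and 65.4% of the genes had the higher share in Dfd or Scr cells. With shares and ratios centred on these medians, an alternative chosen after seeing the data, 13 genes were higher and 9 were lower. Without plate 12 the lower genes numbered 10. The 17 higher genes were noc, robo2, CG18208, hth, nAChRalpha3, luna, CG13739, CG31323, CG30463, x16, ab, elB, trh, SoxN, Cbp20, rn and eIF3d1. The 6 lower genes were tsh, CG31760, oc, dpr12, tok and otk2.

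**Figure D2:**
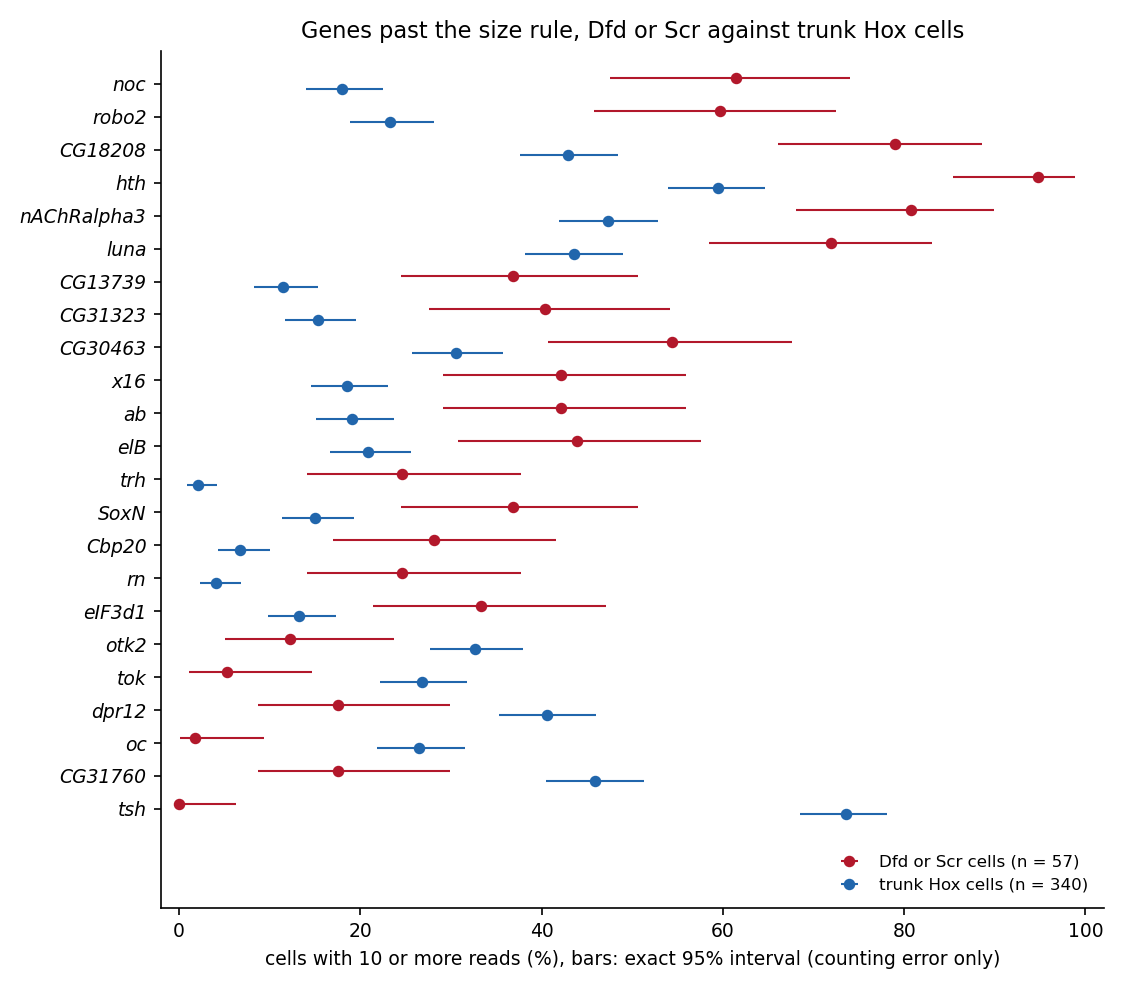
Share of cells with 10 or more reads of the 23 genes past the size rule, in 57 Dfd or Scr cells (red, upper) and 340 trunk Hox cells (blue, lower), ordered by the difference. Bars are exact 95% intervals and cover counting error only. noc stands at 61.4% in Dfd or Scr cells against 17.9% in trunk Hox cells, and tsh at 0% against 73.5%.

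The gene that differed most was tsh (2L, 21828593 to 21837011, BDGP6), which encodes a zinc finger TF that gives trunk segments their identity. tsh had 10 or more reads in 0 of 57 Dfd or Scr cells, which allows a share of up to 5.26%, against 250 of 340 trunk Hox cells (73.5%, exact 95% interval 68.5 to 78.1). Per cell its level was 0 CPM in 56 Dfd or Scr cells and 2.07 CPM in the other one, while the trunk Hox cells ran over 0, 319.03 and 5580 CPM (lowest, median, highest). All Dfd or Scr cells thus lay at the bottom of the range of the trunk Hox cells, where the trunk cells without tsh also lay. Over all reads, tsh had 1 read in Dfd or Scr cells and 79636 in trunk Hox cells. The pooled share of reads was thus 14547-fold higher in the trunk Hox cells (counting interval 2611 to 574593). Both the fold and its limits rest on that 1 read. The interval takes pooled reads as independent counts, which amplified reads are not, so that the shares of cells are the measure here. Within the trunk Hox cells the share with tsh was 76% of the cells with Antp, 77.9% with Ubx, 76.1% with abd-A and 71.1% with Abd-B. Among low-twit cells without a read of any of the 7 targeted Hox genes it was 1.91%. The share with tsh was lower in Dfd or Scr cells on all 15 plates that held both kinds of cell.

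tio, the paralog of tsh, was in 5.26% of Dfd or Scr cells and 9.41% of trunk Hox cells, a difference short of the size rule. oc, which encodes the homeodomain protein Orthodenticle of the anterior head and the midline, was also lower. It had 10 or more reads in 1 of 57 Dfd or Scr cells (1.75%) and in 90 of 340 trunk Hox cells (26.5%), and in low-twit cells without a targeted Hox read in 20.6%. Over pooled reads oc stood at 17.3 CPM in Dfd or Scr cells, 39.6 CPM in Scr cells and 75.3 CPM in trunk Hox cells. In the 32 Dfd cells oc had 1 read in all. The trunk Hox cells were 1238-fold higher than the Dfd cells (counting interval 222.1 to 48901), a fold that rests on that 1 read. The only Dfd or Scr cell with 10 or more reads of oc was an Scr cell at 88.4 CPM, against a highest level of 794.7 CPM in trunk Hox cells. On all 15 plates oc had the lower share in the Dfd or Scr cells. A plate held at most 7 of these cells, so that a share of 0 for so rare a gene shows little on a single plate.

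Of the other lower genes, tok encodes a secreted metalloprotease of the Tolloid family that acts in motor axon guidance, and otk2 encodes a transmembrane relative of Off-track. tok was in 5.26% of Dfd or Scr cells and 26.8% of trunk Hox cells, with a mean of 5.31 and 123.8 CPM. otk2 was in 12.3% and 32.6%. dpr12, an immunoglobulin surface protein gene of the Dpr family, was in 17.5% of Dfd or Scr cells and 40.6% of trunk Hox cells, with a mean of 31.4 and 119.95 CPM. CG31760 was in 17.5% and 45.9%, with a mean of 26.1 and 163.6 CPM. Not all of these genes were as high in each kind of trunk cell, since otk2 was in 4.44% of the 45 trunk Hox cells that had Antp without Ubx, abd-A or Abd-B.

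hth (3R, 10507561 to 10639568, minus strand) was the Hox cofactor gene that was higher. It had 10 or more reads in 54 of 57 Dfd or Scr cells (94.7%, interval 85.4 to 98.9) against 59.4% of the trunk Hox cells (53.98 to 64.7). Its level ran over 0, 1162 and 5915 CPM (lowest, median, highest) in Dfd or Scr cells and 0, 122.7 and 5892 CPM in trunk Hox cells. The highest cells of both groups were alike, and the groups overlapped. Among the cells with 10 or more reads of hth alone, the median was 1409 CPM in Dfd or Scr cells and 571.02 CPM in trunk Hox cells, so that the cells with hth differed in level as well as in number. The mean was 1651 CPM in Dfd or Scr cells and 551.8 CPM in trunk Hox cells, a 2.99-fold difference. This level was not particular to the Dfd or Scr cells. Over pooled reads, hth stood at 1592.9 CPM in the trunk Hox cells with Antp but without Ubx, abd-A or Abd-B. The pooled level was 1580.4 CPM in Dfd or Scr cells and 579.7 CPM in all trunk Hox cells. Per length, hth was also the highest of the TF genes named here, at a mean of 1118 TPM (transcripts scaled by length and total) in Dfd or Scr cells, against 415.5 TPM for mirr, 180 TPM for vvl and 176.5 TPM for noc in the same cells. exd, whose protein Hth brings into the nucleus, was in 43.9% of Dfd or Scr cells and 34.4% of trunk Hox cells, which did not reach 20 points.

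hth makes long proteins with a homeodomain and short ones without it, and the reads were split over both kinds. The long transcripts have 1461 and 1416 coding bases in the annotation, and the short ones fewer. In cells with hth, the short transcripts held a median of 91.6% of the estimated hth reads of a cell in Dfd or Scr cells (54 cells) and 100% in trunk Hox cells. The quartiles were 67.6% and 100% in Dfd or Scr cells and 92.3% and 100% in trunk Hox cells. Dfd cells had a median of 97.7% and Scr cells 87.4%. These shares are estimates of the quantification, and the ranges of both groups overlapped.

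noc (2L, 14490859 to 14494019) and elB (2L, 14390628 to 14409549) are neighbouring genes that encode related zinc finger corepressor proteins. Of all genes compared noc had the largest difference toward the Dfd or Scr cells. It was in 35 of 57 Dfd or Scr cells (61.4%, interval 47.6 to 74) and 61 of 340 trunk Hox cells (17.9%, 14.01 to 22.4), and ran over 0, 90.1 and 1400 CPM in Dfd or Scr cells and 0, 0 and 3117 CPM in trunk Hox cells. The share was higher in Dfd or Scr cells on 14 of 15 plates. elB was in 25 Dfd or Scr cells (43.9%) and 71 trunk Hox cells (20.9%), with means of 52.1 and 25.7 CPM that only just reached 2-fold, and the call for elB held in 15 of 30 alternatives. Both genes met in 19 Dfd or Scr cells and in 20 trunk Hox cells. All 35 Dfd or Scr cells with noc had hth as well, against 39 of the 61 trunk Hox cells with noc. However, hth was in 54 of all 57 Dfd or Scr cells. The trunk count also lies near the share of hth given above for all trunk Hox cells. These counts thus show no link between noc and hth beyond the shares of hth in each group.

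Among the other TF genes trh and rn were rare in trunk Hox cells. trh encodes a bHLH-PAS protein of the tracheae and salivary ducts, and rn encodes a Krüppel-like zinc finger protein of the appendages. trh was in 14 of 57 Dfd or Scr cells (24.6%, interval 14.1 to 37.8) and 7 of 340 trunk Hox cells (2.06%, 0.832 to 4.196), with a mean of 129.3 and 9.41 CPM. rn was in 14 Dfd or Scr cells and 14 trunk Hox cells (24.6% and 4.12%), with a mean of 140.2 and 7.47 CPM. Among the cells with 10 or more reads, trh ran over 135.7, 338.2 and 1796 CPM (lowest, median, highest) in Dfd or Scr cells and 25.9, 306.9 and 1145 CPM in trunk Hox cells. rn ran over 47.4, 390.5 and 1440 CPM in Dfd or Scr cells and 37.1, 138.2 and 395.1 CPM in trunk Hox cells, so that both genes varied widely among the cells that had them. cnc, a bZIP gene of the mandibular segment, pointed the same way but missed 20 points, with 9 Dfd or Scr cells (15.8%) and 13 trunk Hox cells (3.82%) and a mean of 102.5 and 3.92 CPM. At least 1 of trh, rn, cnc and pb was in 33 of the 57 cells, namely in 25 of the 32 Dfd cells and 8 of the 24 Scr cells. These genes were put together after their values were seen. The same count was not made in the trunk Hox cells, where pb alone was in 25.

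luna encodes a Krüppel-like factor, ab a BTB zinc finger protein of neuronal morphology and SoxN a Sox protein of the early neuroectoderm. luna was in 71.9% of Dfd or Scr cells and 43.5% of trunk Hox cells, ab in 42.1% and 19.1%, and SoxN in 36.8% and 15%. Their mean CPM was 2.40-fold, 3.22-fold and 3.39-fold higher in the Dfd or Scr cells. svp, which encodes a nuclear receptor, was in 21.1% and 7.94% and did not pass.

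Among the genes of the cell surface, 3 were higher. robo2, a receptor for the guidance cue Slit, was in 34 of 57 Dfd or Scr cells (59.6%, interval 45.8 to 72.4) and 79 of 340 trunk Hox cells (23.2%, 18.8 to 28.1), and its level ran over 0, 256.9 and 3292 CPM in Dfd or Scr cells and 0, 0 and 4259 CPM in trunk Hox cells. CG18208, listed as Octalpha2R in the current annotation and thus an octopamine receptor gene, was in 78.9% of Dfd or Scr cells and 42.9% of trunk Hox cells, with a mean of 599.4 and 256.8 CPM. nAChRalpha3, a subunit of the nicotinic acetylcholine receptor, was in 80.7% and 47.4%, with a mean of 383.5 and 179.1 CPM. In each case the groups overlapped from 0 CPM upward. trn and robo3 had share differences of 26.4 and 21.4 points in the same direction but mean CPM within 2-fold.

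**Figure D3:**
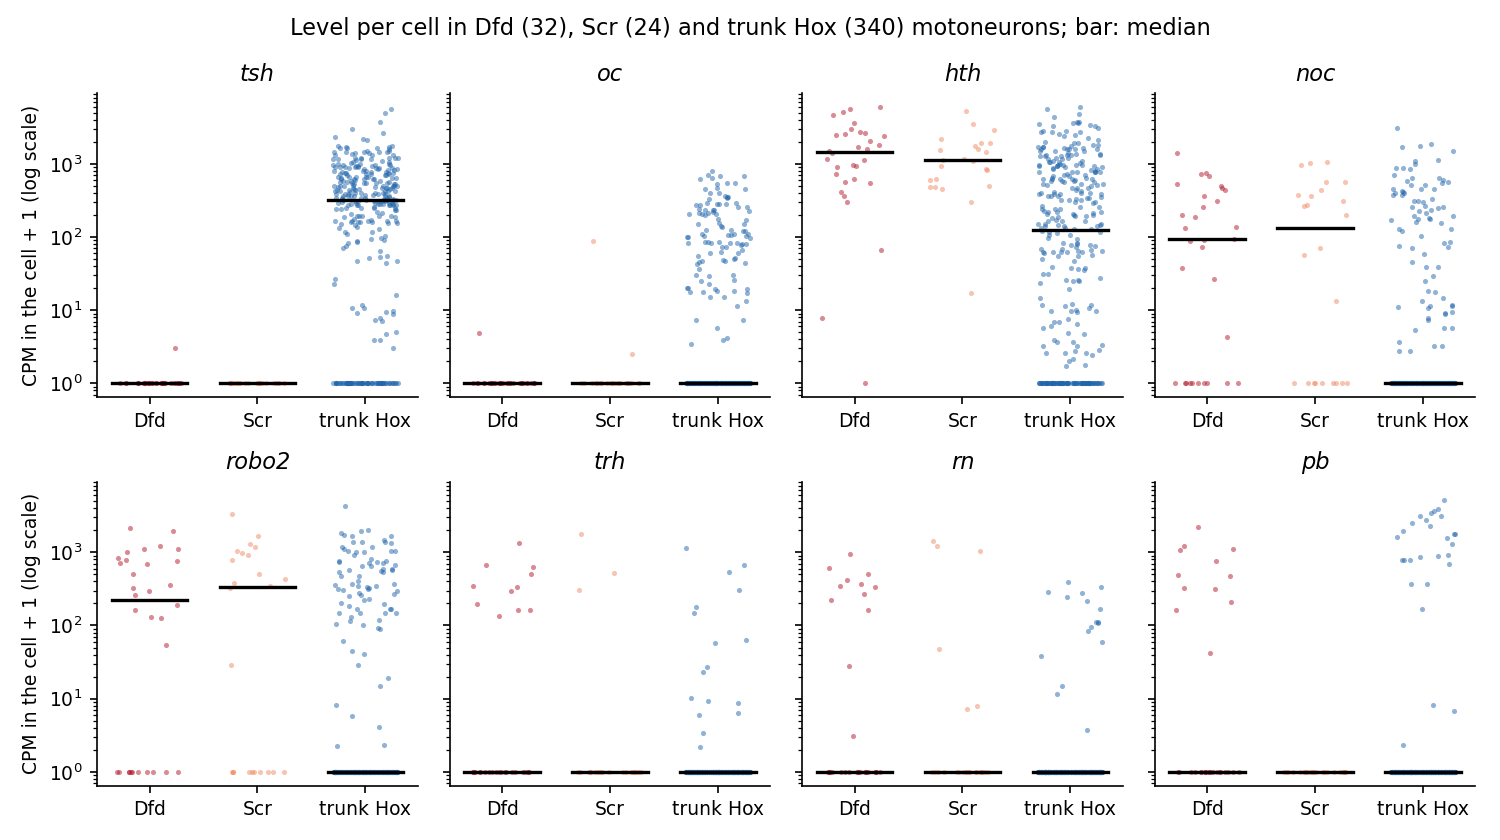
CPM + 1 per cell on a log axis for tsh, oc, hth, noc, robo2, trh, rn and pb in 32 Dfd cells, 24 Scr cells and 340 trunk Hox cells, with 1 point per cell and a bar at the median. tsh and oc are at or near 0 in Dfd and Scr cells, hth is at a median of 1447 CPM in Dfd cells, 1121 CPM in Scr cells and 122.7 CPM in trunk Hox cells, and pb is at 0 in all Scr cells.

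The remaining higher genes are CG13739, CG31323, CG30463, x16, Cbp20 and eIF3d1. x16 encodes a splicing factor, Cbp20 a subunit of the nuclear cap-binding complex, eIF3d1 a translation initiation subunit, and CG30463, listed as Pgant9 in the current annotation, a glycosyltransferase that starts O-glycans. Their shares lay from 28.1% to 54.4% in Dfd or Scr cells and from 6.76% to 30.6% in trunk Hox cells. CG13739 was in 36.8% of Dfd or Scr cells and 11.5% of trunk Hox cells at 8.19-fold the mean CPM, and this rested on the Dfd cells, as it was in 53.1% of Dfd cells and 12.5% of Scr cells.

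Most lists of genes that are known in MNs held few genes past the size rule. Of the 28 homeodomain TF genes compared outside the Hox genes, 1 was higher (hth) and 1 was lower (oc), and their median difference was 6.67 points, against 2.28 points over all genes. vvl, a POU homeodomain gene, was in 63.2% of Dfd or Scr cells and 40.9% of trunk Hox cells, mirr, an Iroquois gene, in 59.6% and 42.4%, and Lim1, a LIM homeodomain gene, in 47.4% and 71.5%. Their mean CPM differed by less than 2-fold. Of the genes on the list for dorsally projecting MNs, eve was in 0 of 57 Dfd or Scr cells and 3 trunk Hox cells (0.882%). There grn was in 33.3% and 52.1% and zfh1 in 29.8% and 34.4%, and 0 of 4 compared were past the rule. Of the factors of ventrally projecting MNs, exex was in 10.5% of Dfd or Scr cells and 2.35% of trunk Hox cells, Lim3 in 17.5% and 10.9%, and 0 of 7 compared were past it. With so few genes and so few calls over all genes, these counts of 0 show little. The median difference was -6.45 points over the 4 genes compared of the dorsal list, all with the lower share in Dfd or Scr cells. It was 6.66 points over the 7 of the ventral list, of which 6 had the higher share, against 2.28 points over all genes. The dorsal list is not specific to dorsal MNs. It holds unc-5, which the authors found in both dorsal and ventral MNs, and zfh1, which they call a motoneuronal marker.

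Of the 21 dpr genes 0 were higher and 1 was lower (dpr12), and of the 6 DIP genes compared 0 were past the rule. The difference for DIP-theta, an immunoglobulin receptor of the Dpr ligands, fell short of 20 points as the gene is rare, with 0 of 57 Dfd or Scr cells and 50 of 340 trunk Hox cells (14.7%). DIP-gamma was in 33.3% of Dfd or Scr cells and 16.5% of trunk Hox cells. Of 37 axon guidance genes 1 was higher (robo2) and 1 was lower (otk2), and of 11 nicotinic and muscarinic receptor genes 1 was higher (nAChRalpha3). In 15 beat and side genes, 24 ion channel genes, 22 synaptic vesicle and active zone genes, 9 neuropeptide genes and 11 glutamate and GABA receptor genes 0 were past the rule in either direction. Of 12 glycolytic genes 0 were past it, yet 9 had lower and 3 higher shares in the Dfd or Scr cells. Their median log2 ratio was -0.77 against -0.09 over all genes. This shift was larger in Scr cells, at -1.57 against -0.44 over all genes, with 10 lower shares and 1 gene past the rule. In Dfd cells it was -0.45 against 0.09 over all genes, with 7 lower and 5 higher shares. Tpi, the triosephosphate isomerase gene, had a mean of 1297 CPM in Dfd or Scr cells and 2826 CPM in trunk Hox cells.

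Dfd and Scr cells were also set against the trunk Hox cells apart. Both comparisons share the same 340 trunk Hox cells, so that their values stand side by side only. In Dfd cells 92 of 4803 genes were higher (1.92%) and 10 were lower (0.208%). In Scr cells 11 of 4132 were higher (0.266%) and 2.49% were lower. Without plate 2 the Dfd cells had 3.08% higher, and the Scr cells had 24 higher genes without plate 10, 19 without plate 12 and 17 without plate 13. The shift of all genes was 5.92 points in Dfd cells and -2.30 points in Scr cells, and the number of genes with at least 1 read moved with it, at a median of 1807.5 in Dfd cells, 1393 in Scr cells and 1407 in trunk Hox cells. The ribosomal RNA share of the reads was 32.5% in Dfd cells, 46.7% in Scr cells and 32.3% in trunk Hox cells at the median. The part of these differences in the counts of genes was not tested. hth, noc, robo2, SoxN, Cbp20 and CG31323 were higher in both comparisons, and tsh, oc and CG31760 were lower in both. trh, rn, ab, x16 and CG13739 were past the rule in Dfd cells and not in Scr cells, while elB and luna were past it in Scr cells and not in Dfd cells. noc was in 65.6% of Dfd cells and 58.3% of Scr cells, and hth in 93.8% and 95.8%.

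Some of these genes were also common in the trunk Hox cells with Antp alone (n = 45), which are a subset of the 340. hth was in 86.7% of them, noc in 44.4% and luna in 66.7%, whereas robo2 was in 13.3%, CG18208 in 37.8% and trh in 6.67%. tsh was in 66.7% of them, against 0% of the Dfd or Scr cells. Thus hth, noc and luna stood nearer to the Dfd or Scr cells in these cells than robo2, CG18208 and tsh did, which is a description without a test.

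Within the Dfd or Scr cells, the question was whether the cells with Dfd differ from those with Scr. As both groups are small, 30 points and 2-fold were asked for. Of 4614 genes compared, 170 were higher (3.68%) and 3 were lower (0.065%) in the 32 Dfd cells than in the 24 Scr cells. Nearly all of this went one way, since 79.2% of all compared genes had the higher share in Dfd cells, at a median of 8.33 points and a median log2 ratio of 0.60. Dfd cells also had more genes detected and less ribosomal RNA, as given above, and after thinning each cell to 50000 reads the median number of genes was 1557.5 in Dfd cells and 1164.5 in Scr cells. With shares and ratios centred on the medians, an alternative chosen after seeing the data, 31 genes were higher and 15 lower. With each cell thinned to 20000 reads outside ribosomal RNA, also chosen after seeing the data, 95 were higher and 5 were lower. The higher genes were 2.38% of those compared without plate 6, 5.45% without plate 12, 1.51% at a Hox minimum of 5 reads and 6.75% without the lowest and highest totals, against 3.68% as first given.

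The 8 genes with the largest difference were RpS19a, CNBP, Socs36E, eIF4G2, RpL38, CG8641, Lam and crc. RpS19a and RpL38 encode ribosomal proteins, CNBP a zinc finger protein that binds nucleic acid, eIF4G2 a translation factor, Socs36E a JAK/STAT inhibitor, Lam the B-type lamin and crc the fly ATF4. CNBP was in 29 of 32 Dfd cells and 10 of 24 Scr cells (90.6% and 41.7%), and RpS19a in 27 and 8 (84.4% and 33.3%). In trunk Hox cells the share was 45.9% for CNBP, near that of the Scr cells, and 54.7% for RpS19a, between both groups. For Lam, 16 Dfd cells and 1 Scr cell had 10 or more reads, and for CG8641 the counts were the same.

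**Figure D4:**
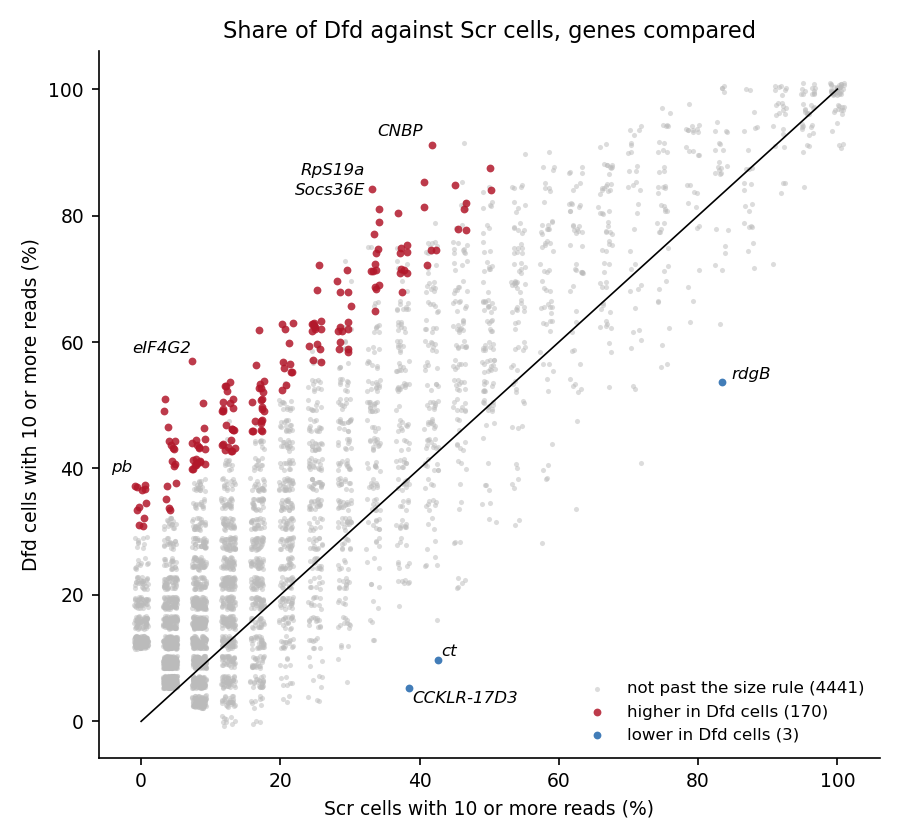
Share of the 32 Dfd cells (vertical) against share of the 24 Scr cells (horizontal) with 10 or more reads, 1 point per gene for 4614 genes, with small random scatter and the line of equal shares. Most of the cloud lies above the line, 170 genes past the size rule are higher in Dfd cells (red) and ct, CCKLR-17D3 and rdgB are lower (blue).

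pb was among the higher genes and had no read in Scr cells. It encodes a Hox protein of the maxillary and labial mouthparts and lies, like Dfd, in the Antennapedia complex (3R, 6707800 to 6742063). It had 10 or more reads in 12 of 32 Dfd cells (37.5%, interval 21.1 to 56.3) and 0 of 24 Scr cells, which allows a share of up to 12.5%. Its reads were 23 at the lowest, 183.5 at the median and 1432 at the highest in those 12 cells, and 0 in each Scr cell. Set against a floor of 3 reads over the Scr cells, the pooled share of reads was 1120-fold higher in Dfd cells. This value is neither a lower bound nor from an exact interval. pb was not absent from trunk Hox cells, where it was in 25 of 340 (7.35%) with a median of 560 reads. The call for pb held in 29 of 30 alternatives and was lost at 29.2 points with shares centred on the median, the alternative that takes out the shift of all genes.

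Few genes of the lists of surface and synaptic proteins were past the rule. Higher in Dfd cells were 1 of 7 DIP genes, 1 of 15 beat and side genes, 1 of 38 axon guidance genes and 1 of 22 synaptic vesicle and active zone genes, with 0 of 21 dpr genes and 0 of 23 other immunoglobulin genes, beside 3.68% of all genes compared. Of the 15 beat and side genes 10 had the lower share in Dfd cells. CG31814, listed as DIP-kappa in the current annotation, was in 16 of 32 Dfd cells and 2 of 24 Scr cells (50% and 8.33%) with a mean of 209.6 and 48.5 CPM. beat-IV, an immunoglobulin gene of the beaten path family, was in 17 and 4 (53.1% and 16.7%), and drl, a Wnt receptor of axon guidance, in 13 and 2 (40.6% and 8.33%). Csp, a synaptic vesicle chaperone gene, was in 53.1% and 16.7%, and trunk Hox cells stood near the Dfd cells for Csp (50.6%) and drl (39.1%) but near the Scr cells for beat-IV (17.9%). With shares centred on the median the calls for beat-IV, drl and Csp were lost and that for CG31814 held.

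The 3 genes that were lower in Dfd cells ran against the shift of all genes. ct, a homeodomain gene of external sensory organs, was in 3 of 32 Dfd cells and 10 of 24 Scr cells (9.38% and 41.7%), with a mean of 17.2 and 288.4 CPM and with 23.8% in trunk Hox cells. CCKLR-17D3, a receptor for the peptide drosulfakinin, was in 2 and 9 (6.25% and 37.5%), with a mean of 8.12 and 135.9 CPM. rdgB, a phosphatidylinositol transfer protein gene, was in 53.1% and 83.3%. The intervals of all 3 differences, made from the exact limits of both shares, reach 0, for ct from -61.4 to 2.91 points. With VGlut-positive cells alone, or without plate 9, 0 genes were lower, and 1 was lower without plate 5 or without plate 17.

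exd differed in share and not in mean, at 59.4% of Dfd cells and 25% of Scr cells with means of 82.5 and 82.2 CPM. elB was in 37.5% of Dfd cells and 54.2% of Scr cells, and noc, hth, robo2, CG18208 and SoxN differed by less than 15 points between Dfd cells and Scr cells. For SoxN both shares were 37.5%, but the interval of the difference ran from -38.3 to 37.5 points, so that the numbers of cells could not show a moderate difference.

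Combinations of TF genes were described by the genes with 10 or more reads in a cell. Of 52 homeodomain genes other than the Hox genes, 38 had 10 or more reads in at least 1 of the 57 cells. A cell had 3 to 12 of them with a median of 8. In trunk Hox cells a cell had 1 to 13 with a median of 6. In Dfd cells the median was 8 and in Scr cells 6, beside the higher number of genes detected in Dfd cells. Among the 57 cells Lim3 (10 cells) and Lim1 (27 cells) met in 0, Lim1 and caup (10 cells) met in 0, and all 9 cells with toy and all 7 with unc-4 had Lim1. In trunk Hox cells Lim3 and Lim1 met in 3 of 340, and 23 of 31 cells with toy and 14 of 15 with unc-4 had Lim1.

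There were 2 sets of cells that shared several TF genes, and both were noticed after the values had been seen. The first held the 6 cells with exex, the fly HB9 gene. All 6 were Dfd cells, and they came from 5 plates. Each had pb, rn, caup, mirr, hth and exd, 5 had vvl, noc and zfh1, and 4 had Lim3 and ara. None had Lim1, trh, svp, cnc or SoxN. Of the other 26 Dfd cells 6 had pb, 4 had rn and 1 had caup. The 8 trunk Hox cells with exex had Lim3 in 7, pb in 0, rn in 1 and caup in 2. exex was in 0 of 24 Scr cells. Set against a floor of 3 reads there, its pooled share of reads was 696.3-fold higher in Dfd cells, which is not a lower bound. This fold pools the reads of few cells, and exex did not pass the size rule between Dfd and Scr cells. ara and caup are related genes, and reads that fit both are split by the quantification.

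The second set held the cells with trh. All 14 had vvl and hth, 7 had svp, and 0 had Lim3, zfh1, ara or exex. The 7 trunk Hox cells with trh were alike in part, as 6 had vvl and 0 had Lim3 or zfh1. The 7 cells with trh and svp were 5 Dfd cells and 2 Scr cells from 6 plates, and all had mirr, with nub and pdm2 in 4 each and NK7.1 in 4. nub and pdm2, the related POU genes at 1 locus, were in 6 Dfd cells each and 5 of the 7 cells with either had trh. In Scr cells they had 0 reads. Set against a floor of 3 reads in Scr cells, the pooled share of reads was 507.9-fold higher for nub and 251.3-fold higher for pdm2 in Dfd cells. Neither value is a lower bound. These folds pool the reads of few cells, and neither gene passed the size rule between Dfd and Scr cells. Nor were the genes absent from trunk Hox cells, where nub was in 23 cells and pdm2 in 12. In trunk Hox cells trh and svp met in 0 of 340, but trh was in only 7 of these cells and svp in 27, so that this 0 shows little. trh and rn, which were both higher in Dfd or Scr cells, met in 1 of the 57 cells, and rn and pb met in 8.

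**Figure D5:**
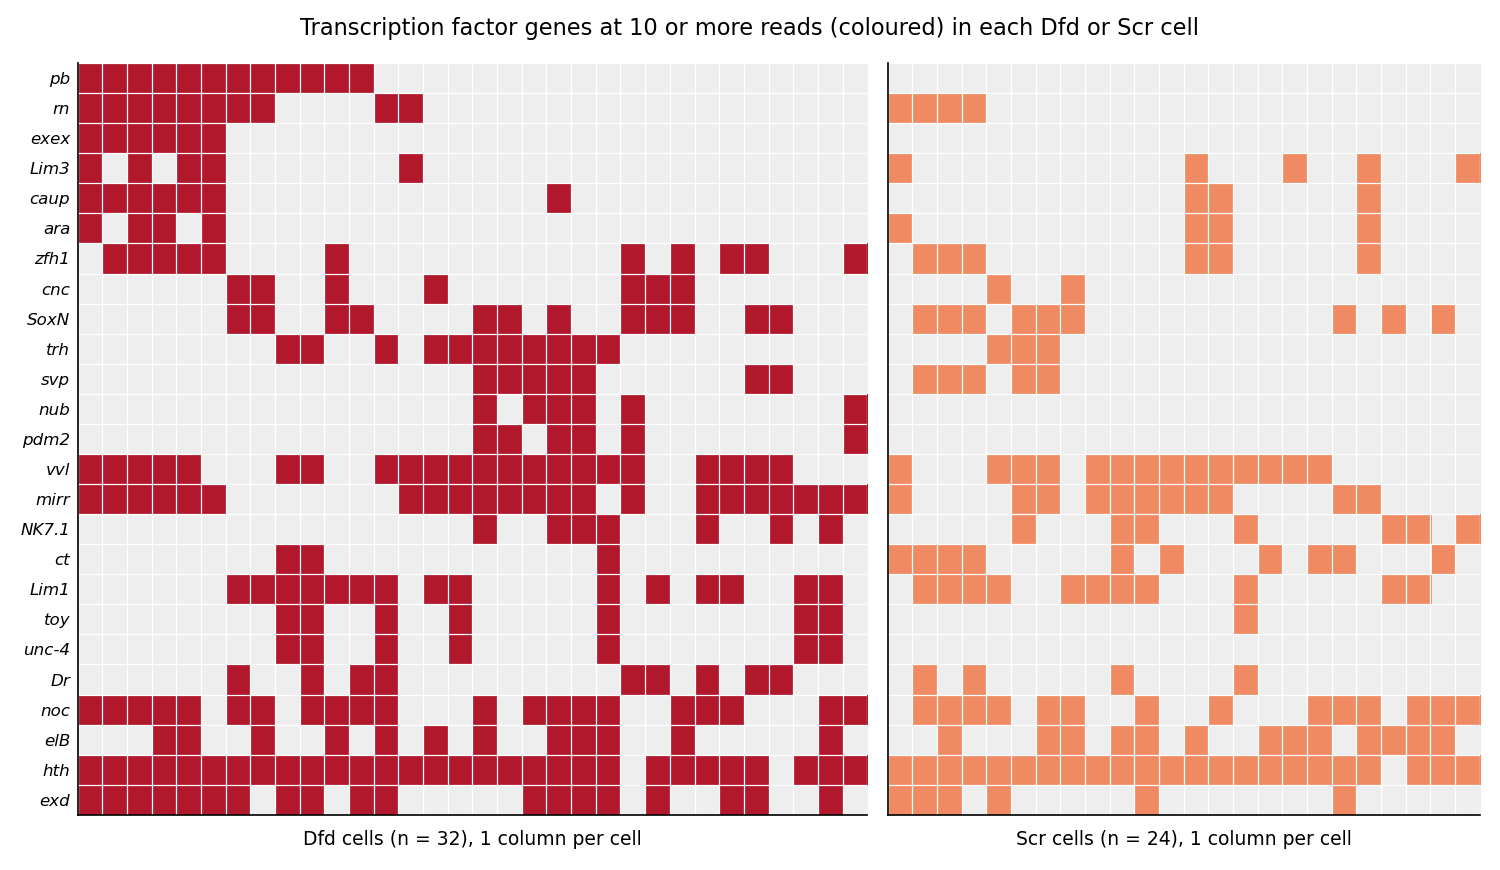
Genes of TFs (rows) with 10 or more reads (coloured) in each of 32 Dfd cells (left) and 24 Scr cells (right), 1 column per cell, with cells sorted by pb, rn, exex, trh, cnc, vvl, mirr and Lim1. The 6 exex cells at the left share pb, rn, caup and mirr, and the 14 trh cells all have vvl and hth.

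The Dfd or Scr cells came from 15 of 16 plates, with at most 7 cells on a plate. Dfd cells were on 13 plates and Scr cells on 14. hth, like noc, was higher in Dfd or Scr cells than in trunk Hox cells on 14 of 15 plates, nAChRalpha3 on 13, CG18208 on 12 and robo2 on 10. With the difference taken within plates and weighted over them, noc was 43.2 points higher, robo2 34.5 points, hth 34.5 points and CG18208 35.8 points higher in Dfd or Scr cells, and tsh was at -72.8 points.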

How the data were processed

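Single motoneurons were sequenced by SMART-Seq2, and the authors trimmed poly-A tails and quantified the reads with kallisto 0.43.0 on BDGP6 cDNA. The deposited gene table holds estimated counts as whole numbers, without normalization (7279 genes, 999 cells that passed the authors' filter of 10 reads in 500 genes). The authors also deposited estimated counts and TPM of each transcript in each cell, used here for hth and to compare levels between genes.

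Groups were set from the gene counts, and 209 low-twit cells had no read of a targeted Hox gene. Genes whose mean share over both groups was at least 5% were compared, without the genes of the rule. CPM used the total count, and log2 ratios a pseudocount of 0.1 CPM. Intervals are exact (Clopper-Pearson or Poisson, 95%) and cover counting error only. The Poisson ones take pooled reads as independent counts, which amplified reads without molecular identifiers are not. With 1 sample no test was run. No doublet caller was used, as each well was sorted to hold 1 cell.

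Members and gene lists were chosen with earlier results of these data known. Named are the 15 genes with the largest share difference each way against trunk Hox cells and others past the size rule, the 8 each way between Dfd and Scr cells, all Hox, cofactor, selector and dorsal or ventral factors, and from other lists the genes past the rule or with the 3 largest differences. Genes of the sets of cells that share TFs, and any other gene named, were chosen after their values were seen. The script was tested on simulated data. Python 3.11.15, numpy 2.4.6, scipy 1.17.1, pandas 2.3.3 and matplotlib 3.10.9 were used.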

Additional observations from a re-analysis of the deposited data

How the results depend on the processing

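The alternatives changed the minimum of reads, depth, CPM total, filter, plates, VGlut, Hox minimum and totals. No paired analysis was possible because the cells are 1 sample and the labels pair none of them by replicate number. Plates, the technical batches, were taken as blocks instead, in the differences within plates. tsh, hth, noc, robo2, luna and CG31760 kept their calls in all 30 alternatives, rn in 20, eIF3d1 in 19 and elB in 15, and no called gene turned direction. The number of cells stayed within 1.5 times of 57. Genes higher in Dfd or Scr cells than in trunk Hox cells were 17, and 11 at a detection minimum of 20 reads, 11 at a Hox minimum of 5 reads and 13 to 21 without single plates. Lower genes were 6, and 10 within plates, 10 at a Hox minimum of 20 reads and 5 to 10 without single plates (10 without plate 12). Genes higher in Dfd than in Scr cells were 3.68% of those compared, and 1.51% at a Hox minimum of 5 reads, 6.75% without the lowest and highest totals, 0.672% median-centred, 2.23% thinned to 20000 reads outside ribosomal RNA, and 2.38% to 5.45% without single plates (2.38% without plate 6, 5.45% without plate 12). Lower ones were 3, and 10 at 1 read, 1 at 20 reads, 5 thinned to 50000 reads, 9 within plates, 0 in VGlut cells, 15 median-centred, 5 thinned to 20000 reads, and 0 to 4 without single plates (0 without plate 9, 1 without plate 5 or 17). Genes higher in Dfd than in trunk Hox cells were 1.92%, and 3.13% at a Hox minimum of 20 reads, 3.45% without the lowest and highest totals, and 1.56% to 3.08% without single plates (3.08% without plate 2). Genes higher in Scr than in trunk Hox cells were 11, and 21 at 1 read, 7 at 20 reads, 20 with CPM without top genes, 18 within plates, 19 in VGlut cells, 19 at 0 trunk Hox reads, 21 without the lowest and highest totals, and 10 to 24 without single plates (24 without plate 10, 19 without plate 12, 17 without plate 13). The causes were not tested. The median-centred values and those thinned to 20000 reads were chosen after seeing the data. With 32 Dfd and 24 Scr cells, counting error alone leaves wide intervals, and depth without molecular identifiers gives no count of molecules.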

Other observations

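Some genes of other transmitters occurred in these glutamatergic cells at shares like those of the trunk Hox cells. ChAT, the enzyme that makes acetylcholine, had 10 or more reads in 14.04% of Dfd or Scr cells and 13.8% of trunk Hox cells, and VGAT, the vesicular GABA transporter, in 19.3% and 20%. ple, the tyrosine hydroxylase gene of dopamine synthesis, was in 3 of 57 Dfd or Scr cells and 0 of 340 trunk Hox cells, and Ddc, the next enzyme of that path, was in 14.04% and 6.76%. No explanation is offered, and the cells were not split by these genes.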
